A study of Sus scrofa with 8 samples.

Results

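The transcriptome of uninjected swine skin was described from 4 biopsies of uninjected sites, out of 8 biopsies in the series. They were the samples labelled as controls that received no intradermal IL-15, 2 from each of 2 Yorkshire pigs of wild-type genotype, and they were chosen by those labels and not by any measured value. The biopsies came from sites 6b and 7b of pig 13 and sites 6b and 7e of pig 14, on skin where injection grids had been marked. The labels give neither the age nor the sex of the animals, nor the body region of each numbered site. The remaining 4 biopsies, not analysed here, came from other sites of the same 2 pigs. Those sites were sampled 3 hours after an intradermal injection of 200 ng IL-15 in 100 µl. Both pigs therefore received IL-15 elsewhere on the skin. The labels do not say when the uninjected sites were sampled relative to these injections. Whole biopsies were frozen, total RNA was extracted and ribosomal RNA was depleted before sequencing. The sites of one pig are not separate animals, so p-values below measure the spread between sites within 2 animals and not the spread between pigs.

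Skin is built of a stratified epidermis over a dermis of fibroblasts and collagen, with hair follicles, glands, vessels and fat below. Basal keratinocytes divide at the basement membrane, where they express the keratins KRT5 and KRT14, and then move upwards, switch to KRT1 and KRT10 and finally build the cornified layer. Dermal fibroblasts secrete the fibrillar collagens and the small proteoglycans that order them. Pig skin is used as a model of human skin because it is tightly attached and carries sparse hair.

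All 31907 genes of the table were read in these 4 biopsies, and the total count was between 28730579 and 33567610 per biopsy. Levels are given as CPM, counts scaled to a common total of all counts assigned to genes in a biopsy, and genes of different length are compared as RPKM, the same measure divided by gene length. Of these genes, 15378 reached 1 CPM in all 4 biopsies, 13519 of them protein-coding and 1272 long non-coding RNA genes. Single biopsies had between 16415 and 16965 genes at 1 CPM or more, and 3788 genes had no count in any. Where 4 values follow each other below, they stand in the order pig 13 site 6b, pig 13 site 7b, pig 14 site 6b and pig 14 site 7e. Markers of skin were detected throughout. All 13 basal and all 18 differentiated keratinocyte markers, all 12 collagen genes and all 22 fibroblast matrix genes reached 1 CPM in every biopsy. By the same rule 13519 of all 21278 protein-coding genes and 5 of 15 matched markers of other organs passed, so detection alone separates little. The summed levels differed more: markers of other organs summed to 17.4 to 31.2 CPM and basal keratinocyte markers to 8966 to 27377 CPM. ALB, the liver's albumin, stood at 3.59 to 5.19 CPM.

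Protein-coding genes held most of the counts, at 84.6%, 84.8%, 86.7% and 85.1%. Genes annotated as long non-coding RNA held 9.05%, 7.80%, 7.26% and 7.13%, but most of that share lay in ribosomal DNA sequence. Between 72.2% and 74.9% of it came from 5 genes on 2 unplaced scaffolds that also carry 18S and 5.8S ribosomal RNA genes, so that reads of the ribosomal precursor and of these genes may not be told apart. The remaining 6786 long non-coding RNA genes together held 1.93% to 2.36% of the counts. Annotated nuclear rRNA genes still held 0.557% to 1.58% after depletion, and the 18S gene RN18S stood at 3994, 6041, 4544 and 12474 CPM, highest at site 7e of pig 14. Genes of the mitochondrial genome held 3.09% to 4.69%, led by its large rRNA and by COX1, a subunit of cytochrome c oxidase, at 6190, 7259, 7244 and 8131 CPM.

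Short structural RNAs were abundant as well. RNase P RNA, the catalytic RNA that trims transfer RNA precursors, stood at 8608, 9672, 8714 and 9572 CPM, a range of 1.12-fold. Copies of the signal recognition particle RNA, which guides secreted proteins to the endoplasmic reticulum, formed 3 of the 20 most abundant rows, at a mean of 7439, 6319 and 5359 CPM. These copies are near-identical, and how reads were split among them is uncertain.

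Collagen genes led the protein-coding transcriptome, except at site 7b of pig 13. COL1A1, the alpha 1 chain of type I collagen (ENSSSCG00000036135, chromosome 12, 26379090 to 26397003 in Sscrofa11.1), was first by mean RPKM and stood at 41785, 8850, 90509 and 83443 CPM. COL3A1 (chromosome 15, 93556912 to 93615815), the chain of type III collagen, stood at 22112, 5628, 42231 and 35016 CPM. COL1A2 (chromosome 9, 74173931 to 74210398), the partner chain of COL1A1, stood at 17911, 5035, 39713 and 32151 CPM. Both biopsies of pig 14 were above both of pig 13 for all 3 genes, and site 7b of pig 13 was the lowest. At that site COL1A1, COL3A1 and COL1A2 ranked 10, 23 and 26 by RPKM among nuclear protein-coding genes. KRT1 and KRT10 ranked 2 and 3 there. Together these genes held 8.18%, 1.95%, 17.2% and 15.1% of all counts. Their proportions moved far less than their levels: the RPKM of COL1A1 was 2.10, 1.58, 2.05 and 2.33 times that of COL1A2. The number of genes that held 50% of the counts followed the collagen share in reverse, at 539, 643, 262 and 274. The 100 most abundant genes held 37.4% ± 5.63 of the counts (SD, n = 4). CPM are shares of one total, so a high collagen share lowers the CPM of all other genes by the same factor.

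**Figure D1:**
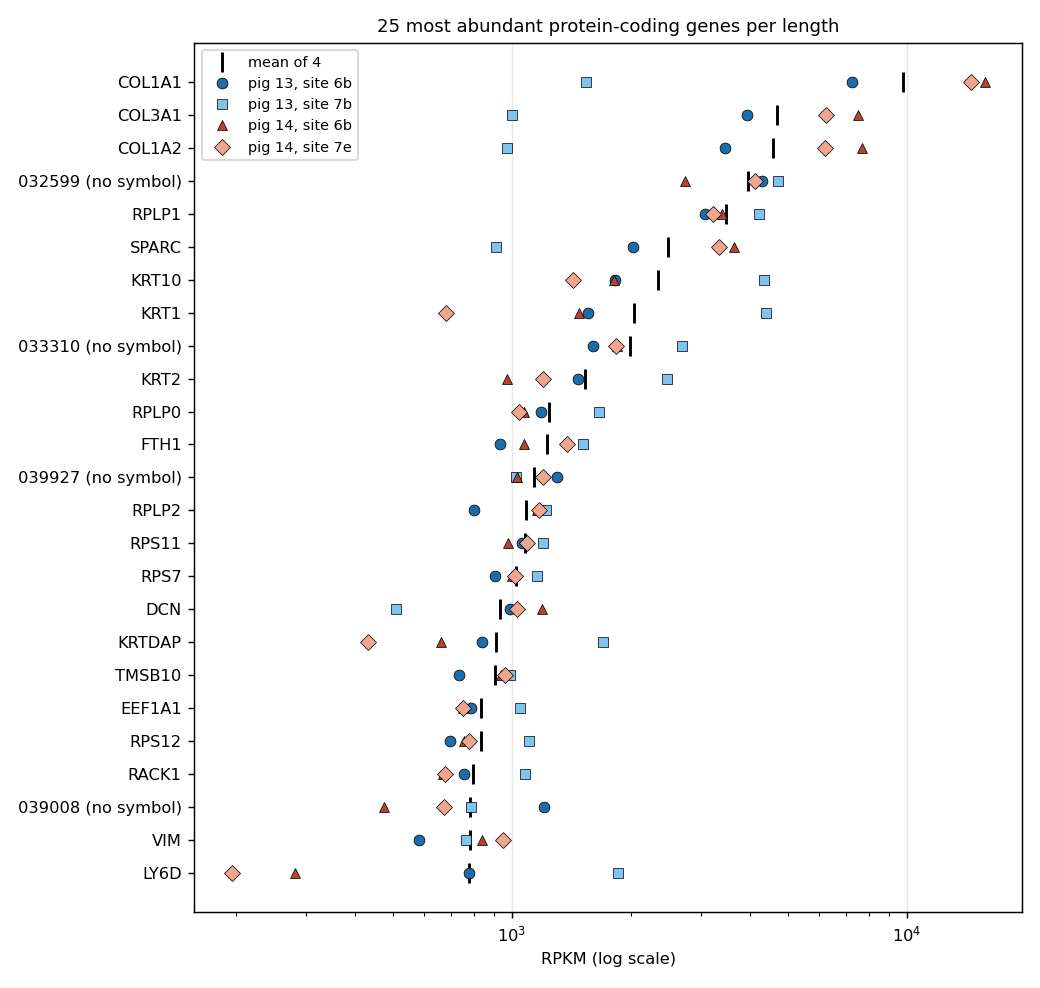
RPKM of the 25 most abundant protein-coding genes of the nuclear genome in each of the 4 uninjected biopsies, on a log axis, with black ticks at the mean. The collagen genes and SPARC are lowest at site 7b of pig 13, where KRT1, KRT10 and LY6D are highest, while ribosomal protein genes such as RPLP1 lie close together. The 4 genes without a symbol are named by the last digits of their identifiers.

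Below the collagens, the most abundant protein-coding genes of the nuclear genome included matrix genes, keratinocyte genes and genes of the translation machinery. SPARC, a collagen-binding matrix protein, had 2479 ± 1260 RPKM (SD, n = 4), and DCN, the proteoglycan decorin that orders collagen fibrils, 929 ± 294 RPKM. KRT10, KRT1 and KRT2, keratins of the layers above the basal one, had 2347 ± 1335, 2030 ± 1632 and 1526 ± 656 RPKM. RPLP1, a protein of the large ribosomal subunit's stalk, had 3484 ± 514 RPKM, and EEF1A1, the elongation factor that delivers transfer RNA, 835 ± 144 RPKM. FTH1, the heavy chain of the iron store ferritin, had 1225 ± 267 RPKM. Among the 25 most abundant, the gene ENSSSCG00000032599 lies on the scaffold with the 18S gene, and its level is therefore uncertain as that of a coding gene. Another pair, ENSSSCG00000039927 and ENSSSCG00000039008, have no symbol and lie in the keratin and keratin-associated gene region of chromosome 12.

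Epidermal genes were at their highest at site 7b of pig 13. The 13 basal keratinocyte markers summed to 17766, 27377, 9547 and 8966 CPM, and the 18 differentiated keratinocyte markers to 15282, 32173, 14815 and 11263 CPM. KRT10 stood at 3842, 9147, 3822 and 3013 CPM and KRT1 at 3737, 10586, 3554 and 1634 CPM. In both, site 7b of pig 13 exceeded each of the other biopsies by over 2-fold. LY6D, a surface protein of stratified epithelia, ranged more widely, at 559, 1341, 203 and 141 CPM. KRTDAP, a secreted protein of differentiating keratinocytes, stood at 468, 943, 368 and 240 CPM.

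The rows for the basal keratins need care. The row named KRT5 (chromosome 5, 17780928 to 17868402) is described in the table as keratin 6A and covers both the KRT6A and KRT5 models of RefSeq, and the row named KRT14 (chromosome 12, 21024314 to 21119396) covers several keratin models. They stood at 6890, 11833, 3279 and 2905 CPM and at 4684, 8249, 2448 and 2359 CPM, and reads of neighbouring keratins can be counted in them. COL17A1, the hemidesmosomal collagen that ties basal keratinocytes to the basement membrane, has a row of its own and stood at 1354, 1834, 495 and 512 CPM. The desmosomal genes DSP and PERP, which join keratinocytes to each other, stood at 4307, 5217, 2936 and 2559 CPM and at 892, 1341, 622 and 480 CPM. For these 3 genes both biopsies of pig 13 lay above both of pig 14.

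The barrier genes of the outermost layers had a narrower range as a group, 1.76-fold. Their 16 matched members summed to 1701, 2360, 1352 and 1345 CPM. IVL, involucrin, an early scaffold of the cornified envelope, stood at 204, 398, 135 and 257 CPM, and TGM3, a transglutaminase that cross-links it, at 244, 283, 145 and 135 CPM. CSTA, a cysteine protease inhibitor of the cornified envelope, was set apart at site 7b of pig 13, with 43.6, 194, 35.4 and 21.7 CPM. Several barrier genes, among them filaggrin and loricrin, were not matched to a row by symbol and are not described.

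Hair follicle genes ran the other way between the sites of pig 13. The 20 matched follicle markers summed to 6439, 2204, 4300 and 5897 CPM, lowest at site 7b of pig 13. KRT71 and KRT25, keratins of the inner root sheath, stood at 1395, 520, 1112 and 1768 CPM and at 900, 321, 814 and 1235 CPM. KRT31 and KRT85, hard keratins of the hair shaft, stood at 1547, 517, 984 and 996 CPM and at 852, 266, 365 and 480 CPM. In all 4 genes site 7b of pig 13 was the lowest. A set of 28 hair keratin and keratin-associated genes picked by their descriptions, after their values were seen, summed to 11606, 4895, 7639 and 7812 CPM. The RPKM ratio of KRT25 to KRT71 stayed between 0.816 and 0.966.

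Glands and fat had site-specific levels. The 15 sebaceous markers summed to 3546, 2128, 2878 and 3377 CPM, and SCD, a fatty acid desaturase, stood apart at site 6b of pig 13 with 2126 CPM against 1054 to 1145 CPM elsewhere. FASN, fatty acid synthase, stood at 997, 522, 1229 and 1678 CPM. PIP, a secreted protein of sweat and other exocrine glands, stood at 29.5, 20.2, 96.9 and 225 CPM, higher at both sites of pig 14. Other sweat gland markers were not ordered like it, with KRT7, a keratin of simple and glandular epithelia, at 74.1, 42.7, 26.9 and 74.1 CPM. The 12 adipocyte markers summed to 1173, 1214, 1954 and 3763 CPM, with site 7e of pig 14 highest. ADIPOQ, the fat cell hormone adiponectin, stood at 281, 335, 663 and 1353 CPM, and PLIN1, which coats lipid droplets, at 115, 95.5, 271 and 658 CPM. In such whole biopsies, fewer cells of a type and less RNA per cell cannot be told apart.

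The smooth muscle and pericyte list was the steadiest of the 28 lists, and the endothelial lists ranged more widely. Its 12 markers summed to 1832, 1833, 1454 and 1599 CPM, a range of 1.26-fold. The 17 blood endothelial markers summed to 1159, 1403, 870 and 1097 CPM, a range of 1.61-fold, and the lymphatic endothelial list ranged 1.72-fold. MYH11, smooth muscle myosin, stood at 364, 336, 397 and 385 CPM. ACKR1, a chemokine-binding receptor of venules, stood at 51.8, 57.1, 61.4 and 58.6 CPM. SELE, selectin E, of the same endothelial list, stood at 4.26, 28.7, 4.49 and 3.07 CPM, highest at site 7b of pig 13. The skeletal muscle list summed to 148 to 188 CPM, and 86.7% of that came from PYGM, muscle glycogen phosphorylase, while ACTA1, skeletal actin, lay between 1.26 and 2.65 CPM. ERBB3, a receptor that keratinocytes also express, made up 83.5% of the nerve and Schwann cell list.

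Blood transcripts differed most of all compartments. HBB, the beta chain of haemoglobin, stood at 19.6, 4.53, 404 and 350 CPM, HBM at 3.33, 1.16, 55.0 and 61.8 CPM, and ALAS2, the first enzyme of haem synthesis in red cell precursors, at 1.58, 0.596, 17.2 and 20.03 CPM. Both biopsies of pig 14 were above both of pig 13 in each. A row described as haemoglobin subunit alpha, ENSSSCG00000007978, ordered the biopsies by pig too, at 5.97, 2.26, 59.7 and 78.1 CPM. The HBB row spans 4621187 to 4809453 on chromosome 9 and overlaps other annotated genes. The red cell list ranged 74.3-fold between its highest and lowest biopsy, the widest of the 28 lists. Without site 7b of pig 13 the range was 18.6-fold, and without HBB it was 21.7-fold.

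**Figure D2:**
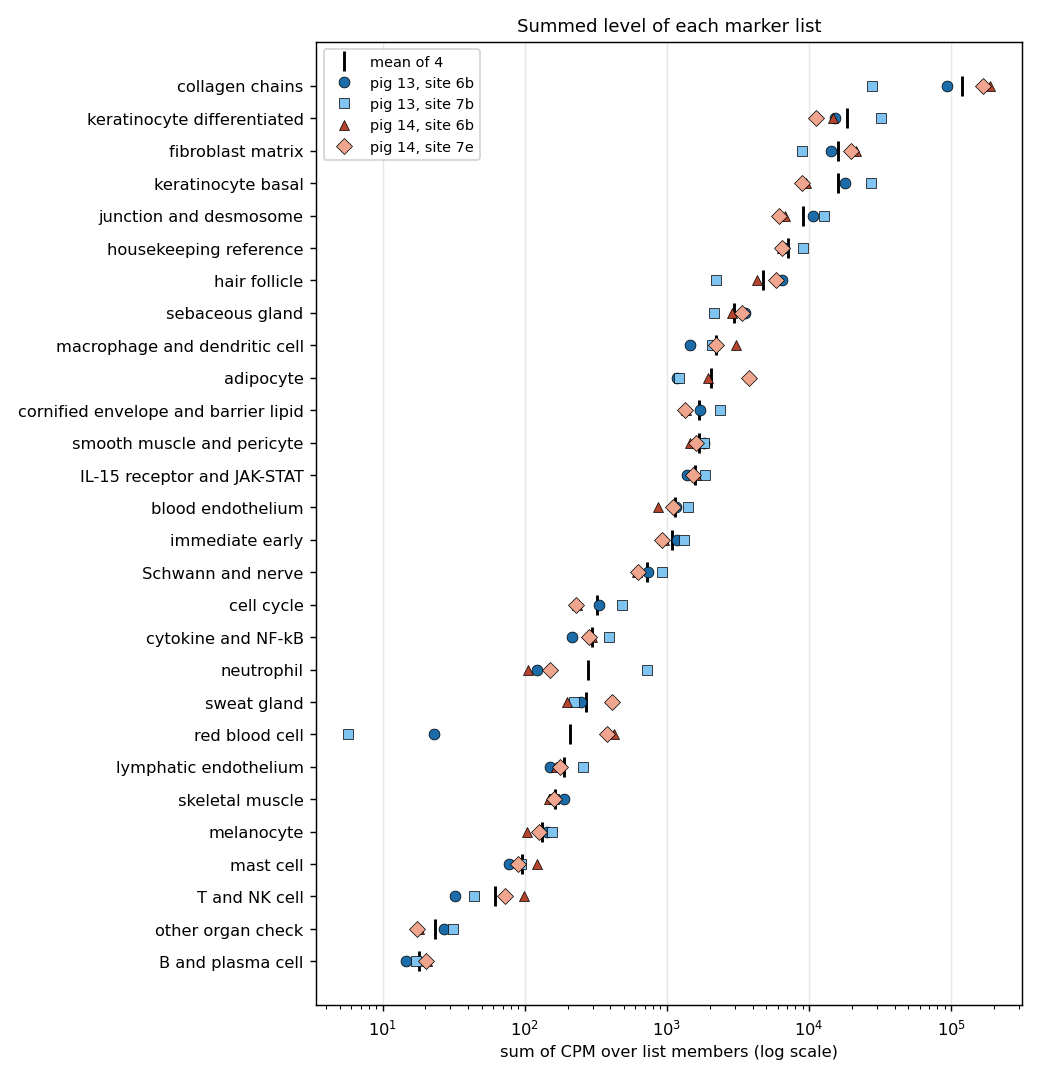
Sum of CPM over the members of each of 28 marker lists in each of the 4 uninjected biopsies, on a log axis, with black ticks at the mean. The lists are ordered by mean. The red blood cell, neutrophil and collagen lists spread most, and the smooth muscle list, with sums of 1454 to 1833 CPM, spreads least.

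Among the immune lists, the macrophage and dendritic cell list had the highest summed level. It summed to 1442, 2072, 3065 and 2210 CPM, and 64.2% of that mean came from CD74, the chaperone of MHC class II. Sums over lists with unlike members do not measure which immune cells were most numerous. C1QC, a complement chain made by macrophages, stood at 47.9, 103, 183 and 94.6 CPM, and CSF1R, the receptor that keeps them alive, at 173, 237, 367 and 223 CPM. The 3 chains of C1q kept their proportions: C1QA had 1.14 to 1.19 times the RPKM of C1QB in every biopsy. T and NK cell genes were scarce. Their 20 matched members summed to 32.5, 44.2, 99.3 and 72.0 CPM, with CD3E, a chain of the T cell receptor complex, at 1.06, 1.97, 5.99 and 4.37 CPM. B and plasma cell genes summed to 14.6 to 20.6 CPM.

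Neutrophil-associated genes were set apart at site 7b of pig 13. The list summed to 123, 727, 105 and 152 CPM. S100A8 and S100A9, the subunits of calprotectin, stood at 10.9, 102, 7.73 and 15.6 CPM and at 12.2, 125, 9.40 and 12.7 CPM. MMP9, a gelatinase, stood at 6.27, 118, 8.25 and 9.06 CPM. CXCR2, a chemokine receptor of neutrophils, was 19.0 CPM at that site and 5.78 to 7.76 CPM elsewhere, whereas CSF3R, the receptor of their growth factor, stood at 6.17, 7.42, 6.65 and 7.67 CPM. Keratinocytes can also express the S100 genes, and which cells carried these transcripts was not tested.

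Other genes were raised at the same site. Of the 9737 nuclear protein-coding genes with a mean of at least 10 CPM, 127 were over 2-fold above every other biopsy at site 7b of pig 13, and 91 were over 2-fold below. The corresponding counts were 30 and 23 for site 6b of pig 13, 5 and 19 for site 6b of pig 14, and 14 and 7 for site 7e of pig 14. S100A7, an antimicrobial protein of keratinocytes, stood at 0.066, 54.0, 0.348 and 0.647 CPM, and ARG1, arginase, at 1.22, 41.3, 0.940 and 0.906 CPM. MMP3, stromelysin, which degrades matrix, stood at 2.67, 295, 2.02 and 60.5 CPM. CRISP3, a secreted protein of glands and granules, stood at 8.32, 309, 16.7 and 34.6 CPM, and TNC, the matrix protein tenascin C, at 107, 458, 55.2 and 67.9 CPM. CXCL8, a neutrophil chemokine, stood at 0.264, 21.8, 0.696 and 1.94 CPM. In MMP3 the second highest biopsy was site 7e of pig 14, while in S100A7 and ARG1 the 3 other biopsies were at or below 1.22 CPM. These genes were named after their values were seen or by the size of their range.

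**Figure D3:**
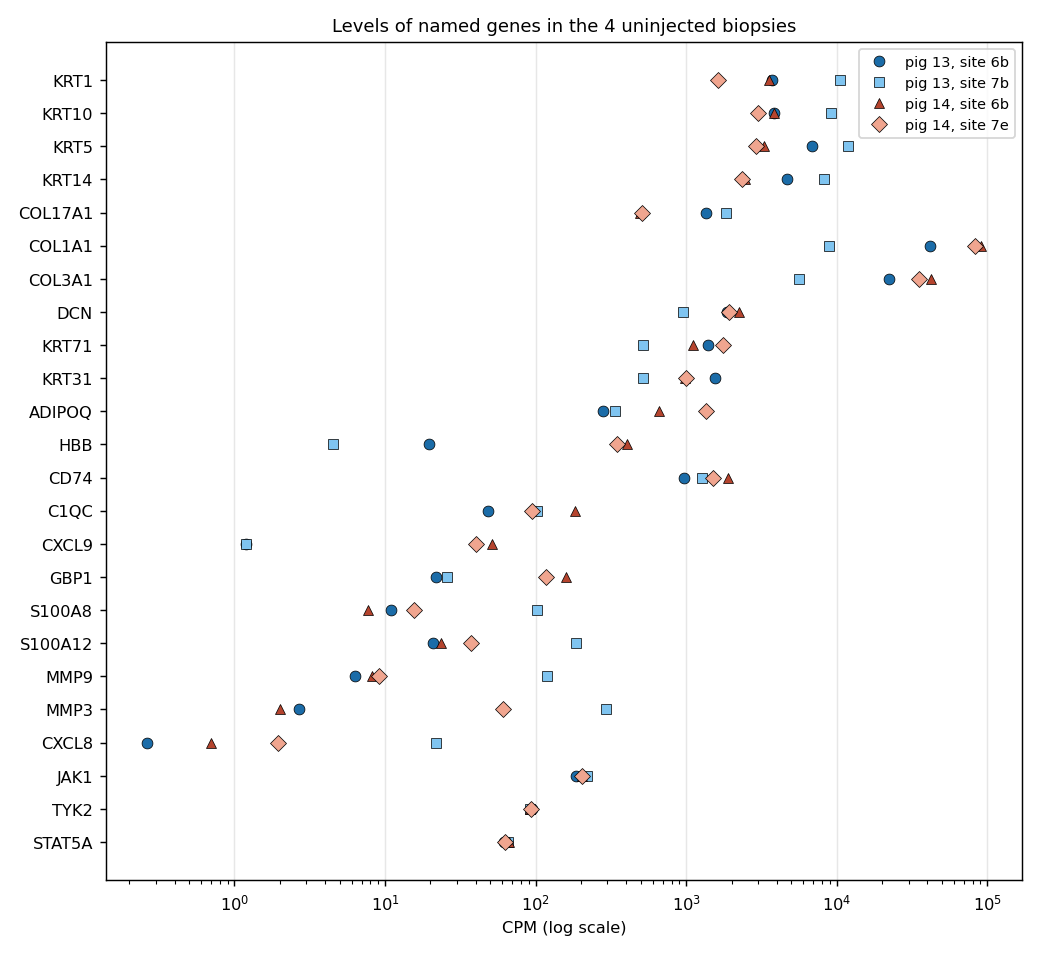
CPM of named genes in each of the 4 uninjected biopsies, on a log axis. S100A8, S100A12, MMP9, MMP3 and CXCL8 are highest at site 7b of pig 13, CXCL9, GBP1 and HBB are higher in both biopsies of pig 14, and JAK1, TYK2 and STAT5A overlap in all 4.

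The range between sites was modest for most genes. Among the 9737 genes, the highest biopsy was 1.46 times the lowest in the median, 1482 (15.2%) exceeded 2 times, 211 (2.17%) exceeded 4 times and 42 exceeded 10 times. The count over 2 times was 724 without site 7b of pig 13. The 2 sites of pig 14 were the most alike, with a median absolute log2 ratio of 0.13 and 76 genes over 2-fold apart. The 2 sites of pig 13 had a median of 0.21 and 406 such genes, and the 4 pairs of different pigs had medians of 0.30 to 0.38 and 446 to 884 such genes.

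**Figure D4:**
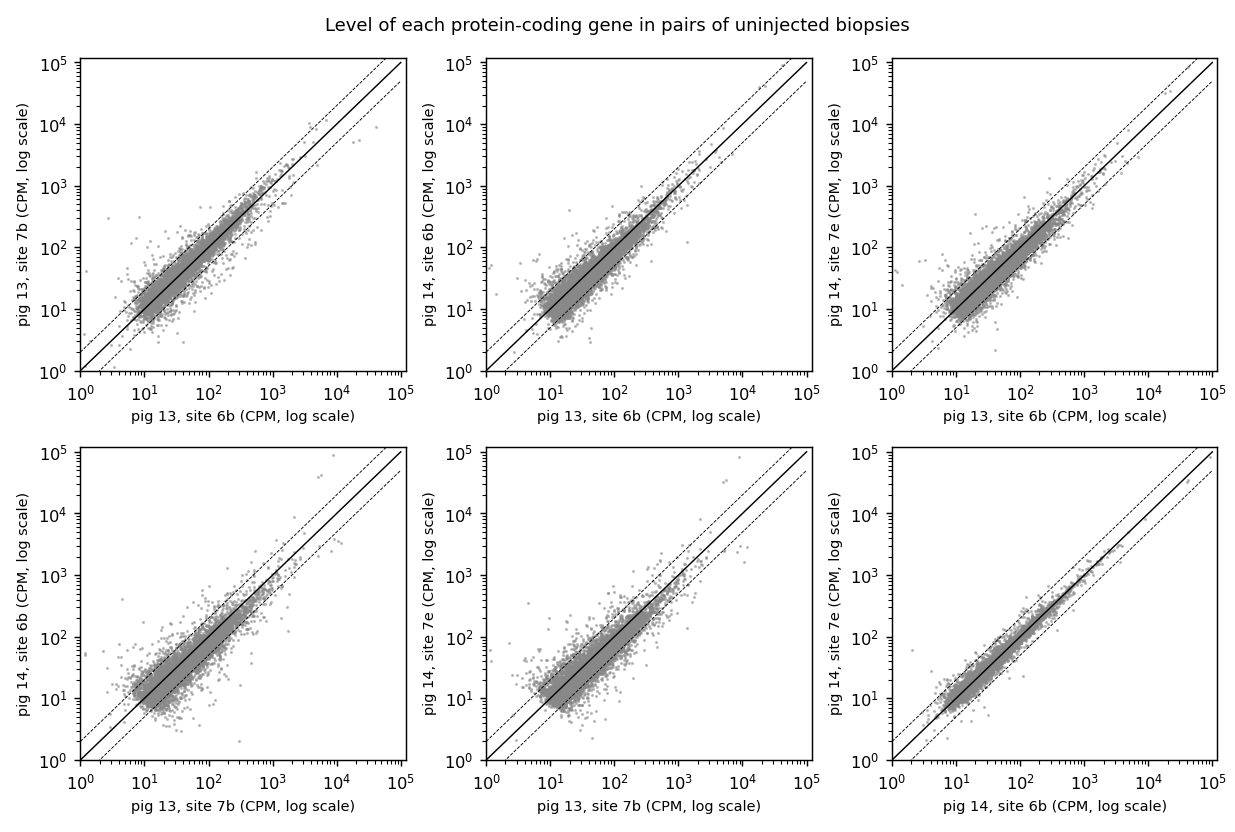
CPM of each of the 9737 nuclear protein-coding genes with a mean of at least 10 CPM, for the 6 pairs of uninjected biopsies, on log axes. The solid line marks equal levels and the dashed lines a 2-fold difference. The points are tightest for the 2 sites of pig 14, where 76 genes lie outside the dashed lines, and widest for site 7b of pig 13 against site 6b of pig 14, where 884 do.

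Which genes looked the most stable depended on the scaling. By CPM, genes with some of the smallest coefficients of variation were PURA, a nucleic acid binding protein (0.657%), MYDGF, a secreted growth factor (1.02%), and EMC10, a subunit of the membrane insertion complex (1.07%). After TMM scaling, a correction for genes that dominate a library, their coefficients were 8.94% to 10.6%. They then ranked 2534, 3355 and 2495 of 9737 genes, and TERF2, a telomere-binding protein, ranked second with 0.776%. Genes often used as references were less steady by CPM, with ACTB, beta-actin, at 14.8%, TUBB, a tubulin, at 13.7% and B2M, the light chain of MHC class I, at 43.1%. After TMM scaling they had 10.2%, 11.2% and 50.8%, and ACTB was then steadier than MYDGF. GAPDH stood at 3.80, 6.58, 1.32 and 1.65 CPM, a low level that is uncertain because reads shared with near-identical copies could be split or lost.

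The receptors and kinases of the pathway that the study targeted were present at baseline. IL-15 binds a receptor of IL15RA, IL2RB and the common chain IL2RG, which signals through JAK1 and JAK3 to STAT5. Per length, JAK1 was the most abundant of the 24 matched members, at 39.7 ± 2.55 RPKM (SD, n = 4), and stood at 187, 219, 202 and 203 CPM. Other abundant members were STAT6 with 34.5 ± 6.50, IL13RA1 with 28.9 ± 7.96, STAT3 with 26.4 ± 8.45, IL6ST with 24.4 ± 3.95, TYK2 with 19.1 ± 0.299, STAT5A with 15.1 ± 0.481 and STAT5B with 13.1 ± 0.406 RPKM. STAT6 and IL13RA1 lay within each other's SD, as did IL13RA1 and STAT3. TYK2, the kinase partner of several cytokine receptors, stood at 94.7, 92.3, 91.4 and 93.4 CPM.

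The specific receptor chains, their kinase JAK3 and the cytokine itself were lower. JAK3 had 3.27 ± 2.05 RPKM and stood at 4.72, 10.7, 26.5 and 19.2 CPM. IL2RG had 3.81 ± 1.20, IL15RA 2.84 ± 0.819, IL2RB 2.31 ± 1.14 and IL15 itself 0.850 ± 0.348 RPKM. Among other members, CISH, which STAT5 induces and which dampens its signal, had 11.6 RPKM, the receptor chains IFNAR1, OSMR, IFNGR1 and IL4R had 6.89 to 7.99 RPKM, SOCS3 4.96, JAK2 4.51, SOCS1 3.37 and IL2RA 1.6 RPKM. IL31RA, the itch cytokine receptor, was lowest with 0.515 ± 0.286 RPKM. SOCS3, a feedback inhibitor of cytokine signals, stood at 3.93, 31.7, 6.79 and 7.73 CPM, and IL4R at 23.1, 63.2, 27.1 and 27.5 CPM, both highest at site 7b of pig 13.

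The 2 pigs were then compared, 2 sites against 2, with edgeR's quasi-likelihood test. Of 20217 genes tested, 519 (2.57%) passed a Benjamini-Hochberg adjusted p of 0.05, 161 (0.796%) higher in pig 13 and 358 (1.77%) higher in pig 14. This split follows the TMM scaling. With plain total counts the median log2 fold change of all genes moved by 0.24 towards pig 13, and 659 genes were called higher in pig 13 and 281 in pig 14. The counts also depended on single biopsies, with 1364 genes called without site 7b of pig 13, 2979 without its site 6b, 44 without site 6b of pig 14 and 54 without its site 7e, each time with 1 biopsy left on a side that was assumed to vary like the other pair. All 519 genes kept their direction in each of these fits, but 38 stayed called without site 6b of pig 14 and 40 without its site 7e. At an unadjusted p under 0.05, 8.99% of all genes were higher in pig 13 and 11.1% in pig 14, and DESeq2 called 2.66% and 5.03%. Without site 7b of pig 13 edgeR called 2.29% and 4.15%. Counts of list members below are to be read against these shares. Fold changes below are log2 values of pig 13 over pig 14 under TMM scaling, so negative values are higher in pig 14.

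**Figure D5:**
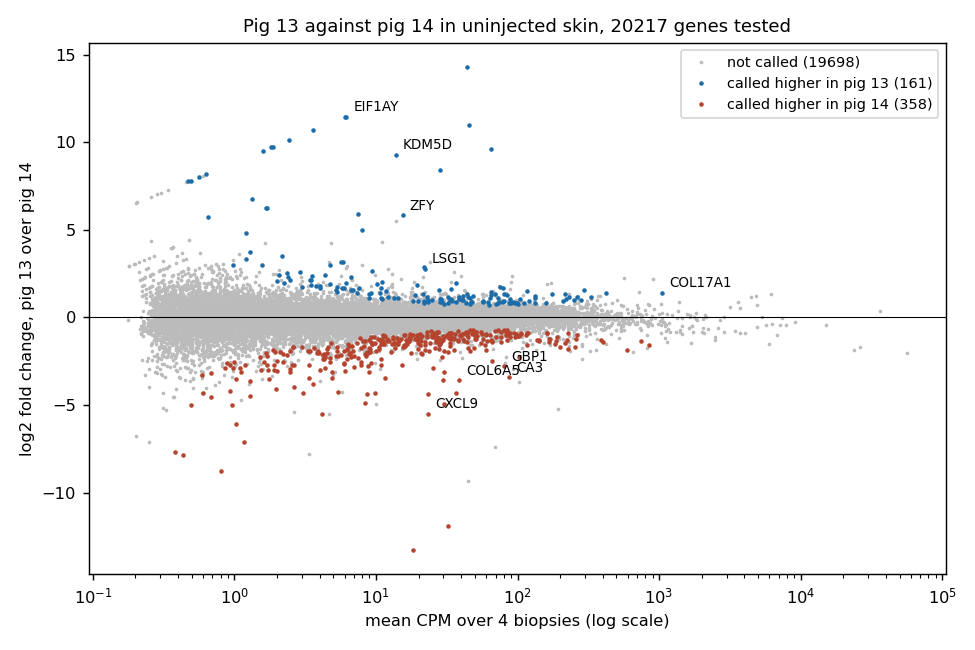
Log2 fold change of pig 13 over pig 14 against mean CPM (log axis) for 20217 genes tested in uninjected skin. Blue points (161) were called higher in pig 13 and red points (358) higher in pig 14; genes on the Y chromosome such as EIF1AY, KDM5D and ZFY lie among the highest.

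Genes annotated on the Y chromosome separated the animals. Of 129 such genes 43 were tested, and edgeR called 19 higher in pig 13 and 0 in pig 14. At an unadjusted p under 0.05 these counts were 24 and 4, the latter near the share of all genes, and DESeq2 called 20 and 2. ZFY stood at 30.6, 30.2, 0.383 and 0.518 CPM (log2 fold change 5.82 ± 0.24 SE, edgeR adjusted p = 0.0003). KDM5D, a histone demethylase, stood at 27.8, 27.4, 0.070 and 0 CPM. EIF1AY, a translation initiation factor, had 10.9 and 13.7 CPM in pig 13 and no count in pig 14, which makes it at least 244-fold higher against a floor of 3 counts over both pig 14 biopsies. In the opposite direction, ENSSSCG00000049776, a long non-coding RNA gene at 59288879 to 59293232 on the X chromosome, had no count in pig 13 and 38.9 and 34.5 CPM in pig 14, at least 781-fold higher. The labels do not state the sex of the pigs. Sex and every other difference between the animals cannot be told apart in what follows.

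Outside the sex chromosomes, the chemokines CXCL9 and CXCL10 and a number of interferon-responsive genes were called higher in pig 14. Most of these genes were named after their values were seen. CXCL9, a chemokine that draws T cells (chromosome 8, 71663495 to 71670271), stood at 1.19, 1.19, 51.3 and 39.99 CPM (log2 fold change -5.50 ± 0.21 SE, edgeR adjusted p = 0.00026). Its neighbour CXCL10 stood at 1.12, 0.715, 18.0 and 14.8 CPM (-4.39 ± 0.30). GBP1, a guanylate-binding protein, stood at 21.7, 25.6, 158 and 117 CPM, IRF1, a transcription factor of the interferon response, at 13.9, 14.4, 52.5 and 39.7 CPM, and IDO1, a tryptophan-degrading enzyme, at 0.198, 0.477, 7.41 and 4.04 CPM. No biopsy of pig 13 reached the lower biopsy of pig 14 in any of these 5 genes. An interferon response list written after these values were seen had 21 of its 35 tested members called higher in pig 14 and 1, OAS1, higher in pig 13, with a median log2 fold change of -1.31 against 0.02 over all genes. With total counts 17 members were called higher in pig 14, where 1.39% of all genes were. It was 4 members without site 6b of pig 14 and 6 without its site 7e, where 0.136% and 0.178% of all genes were. Because it was chosen on these samples, its count is not independent evidence of a direction. IFNG, the gene of interferon gamma, stood at 0, 0, 0.209 and 0.194 CPM, only 6 counts in each biopsy of pig 14, and was not tested. T and NK cell markers moved with these genes: 4 of 17 were called higher in pig 14 (CD2, CD247, CD8B and ZAP70), and 0 lower; at an unadjusted p under 0.05 it was 13 and 0, and DESeq2 called 8 and 0. Without either biopsy of pig 14 edgeR called 0 of them. Their part in the interferon values was not tested.

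Among basal keratinocyte markers, collagen genes and the pathway list, edgeR made 0 calls when site 6b or site 7e of pig 14 was left out. With all biopsies, 4 of 13 basal keratinocyte markers were called higher in pig 13: TP63, the transcription factor of basal cells (1.02 ± 0.18), the integrin ITGB4 (1.16 ± 0.19), COL17A1 (1.42 ± 0.24) and the laminin chain LAMB3 (1.71 ± 0.26). At an unadjusted p under 0.05 in edgeR, 8 of the 13 were higher in pig 13 and 0 in pig 14. Outside the list, COL7A1, the anchoring fibril collagen that ties the basement membrane to the dermis, was also called higher in pig 13 with all biopsies (1.39 ± 0.19). Of 18 differentiated keratinocyte markers edgeR called 0, with 2 higher in pig 13 and 1 in pig 14 at an unadjusted p under 0.05, and DESeq2 called 1 in each direction, counts near the shares of all genes. Of the 12 collagen genes only COL5A2 (-1.36 ± 0.24) and COL14A1 (-1.43 ± 0.18) were called, higher in pig 14, although COL1A1 itself had a larger fold change (-2.02 ± 0.77, adjusted p = 0.21) with a wider spread. Without site 7b of pig 13, 10 of the 12 were called higher in pig 14, and with all biopsies DESeq2 called 8 and 11 had an unadjusted p under 0.05. Of the adipocyte markers FABP4 (-1.40 ± 0.22) and LPL (-1.49 ± 0.26) were called higher in pig 14, and without site 7b of pig 13 or without site 7e of pig 14 it was 0 of 11, while DESeq2 called 9 with all biopsies and 9 had an unadjusted p under 0.05 in edgeR. Of 9 sweat gland markers 7 had a log2 fold change above 0, with a median of 0.37. edgeR called 0 of them, with 3 higher in pig 13 and 1, PIP, in pig 14 at an unadjusted p under 0.05, and DESeq2 called 1 in each direction. Of the pathway list only IL2RB was called, higher in pig 14, at 6.17, 6.58, 16.9 and 14.0 CPM (-1.51 ± 0.20, edgeR adjusted p = 0.025).

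Single genes with no list in common also separated the animals. COL6A5, a chain of type VI collagen, stood at 6.70, 7.03, 77.2 and 63.3 CPM, and CA3, a carbonic anhydrase of muscle and fat, at 16.4, 18.6, 142 and 172 CPM. SCGB1A1, a secretoglobin, stood at 17.8, 11.8, 0.209 and 0.194 CPM, and LSG1, a ribosome export GTPase, at 43.7, 35.0, 4.91 and 4.79 CPM. The sites of a pig lay close together in each of them. All 4 were called under all 10 alternatives that were tried.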

How the data were processed

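RNA from 4 uninjected biopsies was analysed at 28730579 to 33567610 counts per biopsy. Per the submitters' processing notes, the tools were bcl2fastq, STAR 2.5.1a and featureCounts 1.4.6-p5 of Subread with build Sscrofa11.1. How strand was used is not given here. The authors deposited whole-number counts per Ensembl gene. The authors also deposited CPM and RPKM per biopsy, which matched values recomputed from counts and gene length. The authors' single file of pig 13 site 7b held only 607 whole genes, and the series-wide table was used for it instead. The table's 32388 rows held 31907 genes, and 425 repeated genes with identical counts were kept once. Symbols were found for 18290 genes: 16681 in the table, 822 in a table of gene names and 787 in RefSeq.

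CPM are on total counts unless TMM scaling is named. The pigs were compared with edgeR 4.0.16 in R 4.3.3 (filterByExpr with a minimum count of 10, TMM, robust quasi-likelihood F test, Benjamini-Hochberg adjusted p under 0.05). The same test was also run on counts simulated from the gene means and trended dispersions of that fit, with known fold changes added to some well-counted genes. Its outcome is not given here, and no statement above rests on it. The biological coefficient of variation was 22.1%. DESeq2 1.42.0, other scalings and filters and leaving out each biopsy were alternatives. A check for a library deposited in duplicate found none. The 28 lists held 431 entries, of which 391 matched a gene.

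Members and lists were chosen with earlier results of these data known. Named genes were the 10 highest by CPM, the 25 highest protein-coding by RPKM, the 4 highest of each list, all pathway members, the 10 widest and 10 steadiest genes, and in the comparison of pigs the 8 largest called changes each way and the 5 smallest p; others were named after their values were seen, and not every gene the rule takes is named.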

Additional observations from a re-analysis of the deposited data

Results flagged for a closer look

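Among 154 gene levels, list sums and biotype shares checked, 21 had 1 biopsy far from the other 3. Site 7b of pig 13 was the biopsy set apart in 20 of them, always as the highest. Chance sets apart about 1 in 20 of unselected items if values are normally distributed, which was not tested for CPM. The tally cannot be read against that rate either way, since some of these genes were chosen for their level at that site and many vary together.

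At that site the neutrophil list summed to 727 CPM and the housekeeping list to 9072 CPM. Of the S100 and granulocyte-associated genes, S100A7 had 54.0 CPM, S100A8 102 CPM, S100A9 125 CPM, S100A12 185 CPM, MMP9 118 CPM, CXCR2 19.0 CPM and CXCL8 21.8 CPM. Of the epidermal genes, KRT10 had 9147 CPM, CALML5, a calcium-binding protein of the epidermis, 658 CPM and CSTA 194 CPM. Of the cytokine pathway, IL4R had 63.2 CPM, STAT3 318 CPM and SOCS3 31.7 CPM. ARG1 had 41.3 CPM, CRISP3 309 CPM, TNC 458 CPM, MKI67, a marker of dividing cells, 88.4 CPM and EEF1A1 2700.2 CPM.

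At site 6b of pig 13, SCD was set apart with 2126 CPM.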

How the results depend on the processing

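The count of 519 genes that differed between the pigs was 529 with DESeq2's size factors in edgeR and 525 without rRNA and mitochondrial genes. It was 1071 without the filter on low counts, 1554 with DESeq2, 940 with total count scaling (chosen after seeing the data) and 128 with the site number as a block. Leaving out each biopsy gave 44 to 2979. The labels give no meaning to the site number. Deviations of same-numbered sites correlated at -0.04. With 2 sites per pig this is a single contrast in each animal, so it cannot show whether equal numbers mark a shared position. Of 62 called genes that are named or lie in a list, none changed direction. All 62 stayed called by DESeq2, 57 with total counts, 28 with the block, 15 without site 7e and 13 without site 6b of pig 14. The protein-coding share was 87.0% without rRNA and mitochondrial genes and 58.9% by RPKM, where the 100 most abundant genes held 59.1%. Genes detected at 1 CPM ran from 15501 to 15616 over the biopsies left out. Lists over 2-fold between biopsies numbered 13 of 28, 11 after TMM scaling and 6 to 12 with a biopsy left out. Genes over 2-fold numbered 3451 of 14297 at a mean of 1 CPM or more and 724 to 1249 with a biopsy left out; both lowest values were without site 7b of pig 13. The cause of these shifts was not tested. At these depths genes near 1 CPM rest on few counts and are less precise.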

Other observations

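Of 14 cell division genes tested, edgeR called 2 higher in pig 13, and DESeq2 called 4. Over all genes edgeR called 0.796% and DESeq2 2.66% higher in pig 13. At an unadjusted p under 0.05 in edgeR, 8 of the 14 were higher in pig 13 and 0 in pig 14, against 8.99% and 11.1% of all genes. In the order pig 13 site 6b, pig 13 site 7b, pig 14 site 6b and pig 14 site 7e, the cell division list summed to 334, 482, 233 and 230 CPM. TYMS, thymidylate synthase, stood at 22.9, 40.9, 7.07 and 7.67 CPM and was called with a log2 fold change of 1.87 (edgeR adjusted p = 0.036). RRM2, a subunit of ribonucleotide reductase, stood at 59.5, 82.5, 25.03 and 25.9 CPM and was the other. Neither was called without site 6b or site 7e of pig 14. B2M, the light chain of MHC class I, was called higher in pig 14, at 120, 168, 331 and 275 CPM, with a log2 fold change of -1.31 (edgeR adjusted p = 0.037), and 7 of 10 alternatives kept that call.

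A few rows ranged widely, and their values led to their choice. The pseudogene ENSSSCG00000051005 (chromosome 5, 19946923 to 19952298) stood at 249, 9560, 1528 and 3040 CPM, and RefSeq places a protein-coding model over it. It was not called (adjusted p = 0.84). The long non-coding RNA gene ENSSSCG00000047735 on chromosome 1 stood at 0.396, 1.46, 260 and 13.1 CPM, high in a single biopsy, site 6b of pig 14. ZNF599, a zinc finger gene, stood at 1345, 1742, 123 and 438 CPM and was not called (adjusted p = 0.16).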
